A study of Mus musculus with 24 samples.

Results

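The 10 genes described here encode the enzymes that make long-chain fatty acids from acetyl-CoA and put double bonds into them, with 1 of their transcription factors: Acly, Acss2, Acaca, Fasn, Elovl6, Scd1, Scd2, Fads1, Fads2 and Srebf1. They were read on 24 one-colour Agilent arrays as the probes that the array files name after these genes, and for each gene the probe with the highest mean log2 signal stood for it. All 10 genes were measured, among 22065 genes or transcripts tested. The arrays carry 28 probes of the 10 genes. Of these, 23 were tested and 20 were well above background on all 24 arrays, the 10 probes that stand for the genes among them.

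Whole vibrissa follicles of B6C3F1 mice at postnatal day 9 were kept in serum-containing culture for 24 h. The medium held panthenyl ethyl ether (PEE, 0.3%), PEE with pyridoxine hydrochloride (PEE-PH), PEE with tocopherol acetate (PEE-TA), all 3 agents (PEE-PH-TA), pyridoxine hydrochloride alone (PH, 0.015%), tocopherol acetate alone (TA, 0.024%), the pair PH-TA, or none of them (control). Combinations used the same percentages as the single agents. PEE is a derivative of panthenol, the alcohol of pantothenic acid, PH is a form of vitamin B6, and TA is an ester of vitamin E. Each group had 3 arrays from separate experiments, and each array measured RNA pooled from 10 follicles. The follicle was measured as a whole, so fewer cells of a type and less RNA per cell cannot be told apart.

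Fatty acid synthesis starts in the cytosol. ATP citrate lyase (Acly) and acetyl-CoA synthetase (Acss2) supply acetyl-CoA from citrate and from acetate, acetyl-CoA carboxylase (Acaca) turns it into malonyl-CoA, and fatty acid synthase (Fasn) builds palmitate. Elovl6 lengthens palmitate, Scd1 and Scd2 place a double bond in saturated chains, and Fads1 and Fads2 desaturate polyunsaturated chains. Srebf1 encodes SREBP-1, a transcription factor that is known to act on genes of this pathway in liver. In skin these lipids are known to go into sebum, the epidermal barrier and cell membranes.

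RefSeq promoter entries (GRCm38.p6) were found for 7 of the 10 genes. The 250 bases before the start site are printed for Acss2, which moved most with PEE, for Fasn, the synthase itself, and for Acly. These 3 genes rose together in every group with PEE. Elovl6 rose in every such group as well, and its stretch is not printed. Capitals mark matches to motifs searched on both strands. Acss2 lies at chr2:155517793-155518042 on the plus strand, Fasn at chr11:120824548-120824797 on the minus strand and Acly at chr11:100528001-100528250 on the minus strand.
Acss2: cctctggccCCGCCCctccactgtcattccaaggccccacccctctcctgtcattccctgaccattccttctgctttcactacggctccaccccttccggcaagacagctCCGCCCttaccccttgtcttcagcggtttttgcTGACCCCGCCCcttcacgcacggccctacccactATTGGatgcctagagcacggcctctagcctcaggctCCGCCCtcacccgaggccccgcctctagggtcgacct
Fasn: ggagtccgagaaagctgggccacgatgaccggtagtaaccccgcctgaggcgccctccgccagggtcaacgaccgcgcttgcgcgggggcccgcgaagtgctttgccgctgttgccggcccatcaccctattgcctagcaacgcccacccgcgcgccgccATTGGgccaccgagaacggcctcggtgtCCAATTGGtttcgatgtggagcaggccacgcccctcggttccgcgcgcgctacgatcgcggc
Acly: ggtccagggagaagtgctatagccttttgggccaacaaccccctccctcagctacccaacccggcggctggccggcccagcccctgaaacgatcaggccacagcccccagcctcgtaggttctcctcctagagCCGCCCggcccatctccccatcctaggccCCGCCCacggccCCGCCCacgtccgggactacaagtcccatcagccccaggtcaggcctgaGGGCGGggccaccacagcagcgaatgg
The Acss2 stretch holds 4 GC boxes (GGGCGG, read here as CCGCCC), 1 NF-Y box (CCAAT, read as ATTGG) and 1 match to the antioxidant response element TGACNNNGC, which overlaps a GC box. Fasn holds 3 NF-Y boxes, of which the 2 nearest to the start site share bases, and Acly holds 4 GC boxes. The 7 genes have 9 promoter entries. NF-Y boxes were found in 3 of the 7 genes (4 of the 9 entries) and in 33.8% of all 32851 promoter entries of the same length. GC boxes were found in 4 of the 7 genes (5 of the 9 entries) and in 32.7% of all entries. The antioxidant response element was found in Acss2 alone of the 7 (1 of the 9 entries), and in 10.2% of all entries. The sterol response element in the form TCACNCCAC (1.05% of all entries) and the E-box CACGTG (6.02%) had no match in the 7 genes, which says only that these letters are not in these windows. The stretches of Elovl6 and Acaca held no match to any of the motifs searched.

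No spot was saturated, and the share of spots well above background ran from 58.3 to 62.5% over the arrays. The 75th percentile of signal ran from 142 to 248 over the 24 arrays, and levels below are log2 signal relative to this percentile on the same array. The 3 PEE arrays had the 3 lowest percentiles (147, 142 and 142), against 190, 170 and 155 in control. The other 9 arrays with PEE lay between 175 and 217. Each of the 3 slides carried 1 array of every group. Differences were tested by limma over all 22065 genes, with Benjamini-Hochberg adjustment and a threshold of 0.05. Differences are on the log2 scale with standard errors (SE), and group means have standard deviations (SD), with n = 3 arrays per group. P-values measure the spread between these samples.

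PEE cultures had higher levels of most of these genes. Averaged over its 4 backgrounds (no other agent, PH, TA and PH-TA), 9 of the 10 genes rose and 0 fell by limma, where 12.8% of all genes rose and 14.2% fell. The median difference of the 10 genes was 0.42, against 0.01 over all genes tested. Acss2 moved most, at 2.29-fold, and Scd2, Elovl6, Fasn and Acly rose by 1.56-, 1.42-, 1.42- and 1.37-fold. Scd1, Fads1, Acaca and Srebf1 rose by 1.32-, 1.31-, 1.23- and 1.12-fold. Fads2 was the exception on the probe that stands for it, at 1.08-fold (adjusted p = 0.323). For Acss2, Scd2, Elovl6, Fasn and Acly all 12 arrays with PEE lay above all 12 without it, which held for 0.92% of all genes. With the log2 percentile of each array as a covariate the same 9 calls held, with differences of 0.22 for Srebf1 to 1.27 for Acss2.

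**Figure D1:**
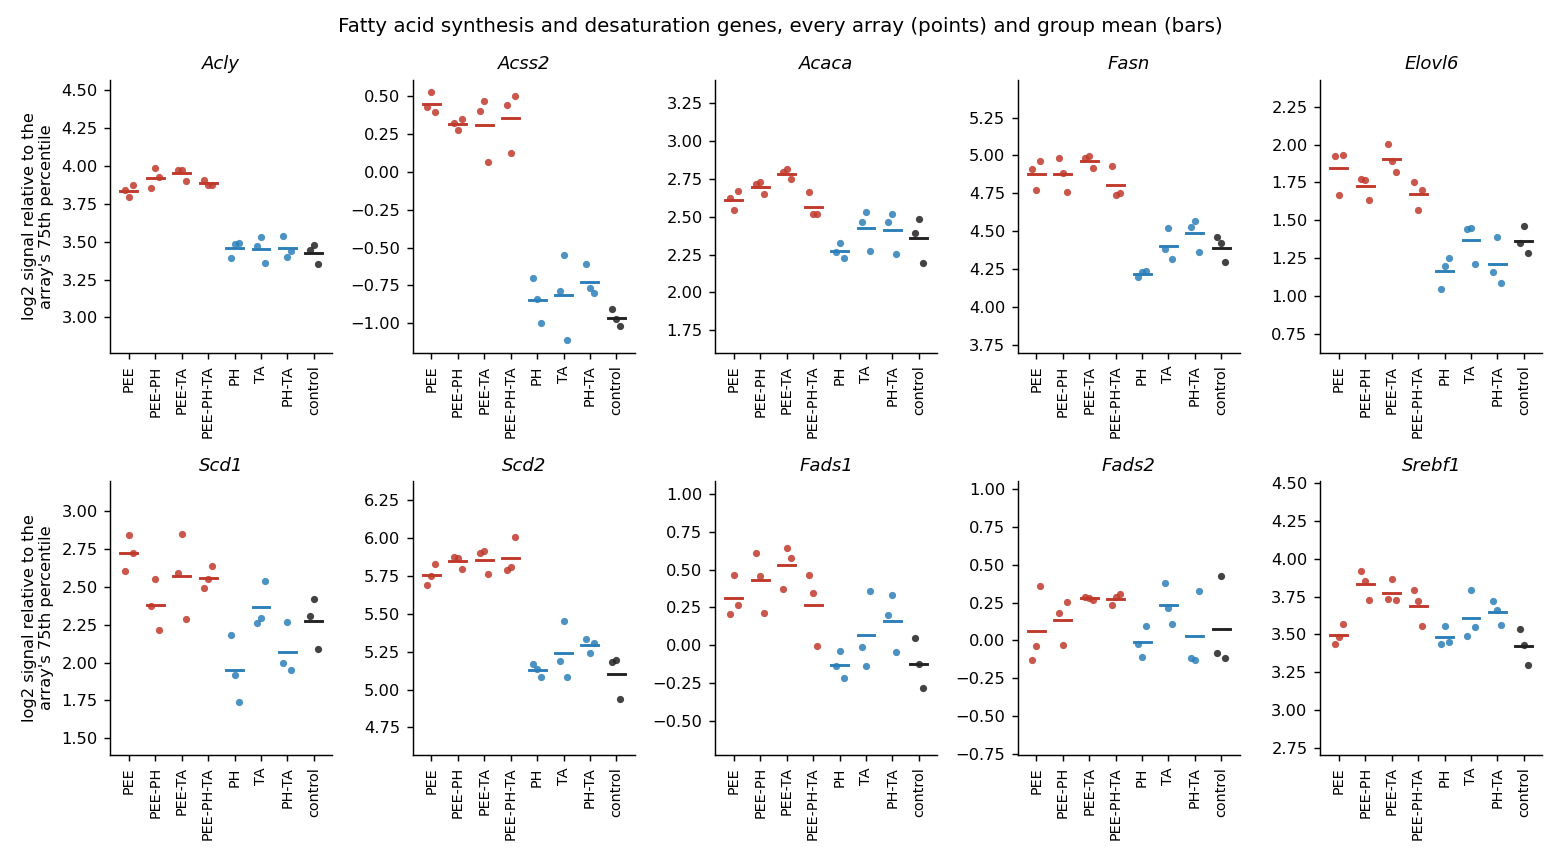
Log2 signal relative to the array's 75th percentile for the 10 genes, by group, with the 4 groups with PEE in red on the left, PH, TA and PH-TA in blue and control in black on the right. Points are single arrays (3 per group), bars are group means, and all panels span the same number of log2 units. For Acss2, Scd2, Elovl6, Fasn and Acly the red points lie above all others.

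Acss2, which activates acetate, stood at 0.43, 0.53 and 0.39 in the 3 PEE arrays, against -0.90, -0.97 and -1.02 in control. The PEE-PH arrays read 0.32, 0.28 and 0.35, the PEE-TA arrays 0.40, 0.47 and 0.07, and the PEE-PH-TA arrays 0.44, 0.12 and 0.50. The cultures without PEE ran from -1.11 to -0.55, so a gap parted the 12 arrays with PEE from the 12 without. The difference of PEE from control was 1.42 ± 0.13 (limma, adjusted p = 1.11e-06), a 2.67-fold rise. When PEE was added to PH, TA or PH-TA it was 1.16, 1.13 and 1.08. Within single slides the average effect of PEE ran from 1.13 to 1.31. A second Acss2 probe gave 1.00 (adjusted p = 3.14e-08 over single probes). The probe that stands for Acss2 lies at chr2:155388385-155388444 on the plus strand (mm9, the build of the array files).

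Acly, which splits citrate, rose in all 4 backgrounds as well, by less. It stood at 3.84, 3.80 and 3.88 in the PEE arrays, against 3.45, 3.48 and 3.35 in control. The 12 arrays with PEE ran from 3.80 to 3.99 and the 12 without from 3.35 to 3.54. The 4 differences were 0.41 ± 0.06 (PEE against control, limma, adjusted p = 1.53e-04), 0.46 (PEE added to PH), 0.50 (to TA) and 0.43 (to PH-TA). By slide the average effect ran from 0.43 to 0.48. Its second probe gave 0.43.

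Acaca, which commits acetyl-CoA to fatty acid synthesis, was higher with PEE by a smaller margin. It stood at 2.62, 2.55 and 2.67 with PEE, against 2.39, 2.49 and 2.19 in control. The difference of 0.26 ± 0.08 missed the threshold (limma, adjusted p = 0.0533). It passed under 8 of 35 alternatives, among them the replicate block (0.0248), quantile normalization (0.0473), the authors' table (0.0448) and the array percentile as a covariate (0.41, 0.0187). It rose with PEE-PH (0.34, adjusted p = 0.00369) and PEE-TA (0.43, 0.00122), and its value with PEE-PH-TA was 0.21 (0.0909). The average effect of PEE was 0.30 ± 0.04 (2.25e-05). Of 6 Acaca probes tested, 2 rose with PEE on average, at 0.30 and 0.34, and the other 4 lay between 0.12 and 0.36 without passing. With the mean of all its probes its call with PEE-PH ended (0.17, limma, adjusted p = 0.265), and so did those for PEE added to PH (0.277) and to TA (0.104). Another Acaca probe, A_52_P132591, fell by 0.23 with PH on average (limma over single probes, adjusted p = 0.0447), where 18% of probes fell. It was dim, at a mean log2 signal of 3.3, and the probe that stands for Acaca gave -0.06 (0.323).

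Fasn stood at 4.91, 4.77 and 4.96 with PEE, against 4.46, 4.42 and 4.29 in control. The highest group was PEE-TA, at 4.986, 4.998 and 4.916. The lowest was PH, at 4.20, 4.23 and 4.24. The 4 differences for adding PEE were 0.49 ± 0.08 (to control, limma, adjusted p = 6.02e-04), 0.65 (to PH), 0.56 (to TA) and 0.32 (to PH-TA, 0.0121). The last of these ended without PEE-PH-TA replicate 1 (0.26, adjusted p = 0.0587), with quantile normalization (0.0644) and in the authors' table (0.13). Only 1 probe measured Fasn, and the same holds for Elovl6, Scd2 and Srebf1.

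Elovl6, the elongase that follows Fasn, stood at 1.93, 1.67 and 1.93 with PEE, against 1.35, 1.46 and 1.29 in control. It rose in all 4 backgrounds, with differences of 0.48 ± 0.10 (limma, adjusted p = 0.00382), 0.56, 0.54 and 0.46. Each of these 4 calls ended when all arrays of 1 or another replicate number were left out (adjusted p of 0.0549 to 0.153). The 3 lowest Elovl6 arrays were in the PH and PH-TA groups, at 1.05, 1.08 and 1.16. Against control its rise with PEE-PH-TA was 0.31 (0.0364). That call ended without control replicate 1, control replicate 3, PEE-PH-TA replicate 1 or PEE-PH-TA replicate 3 (adjusted p of 0.0851 to 0.137).

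**Figure D2:**
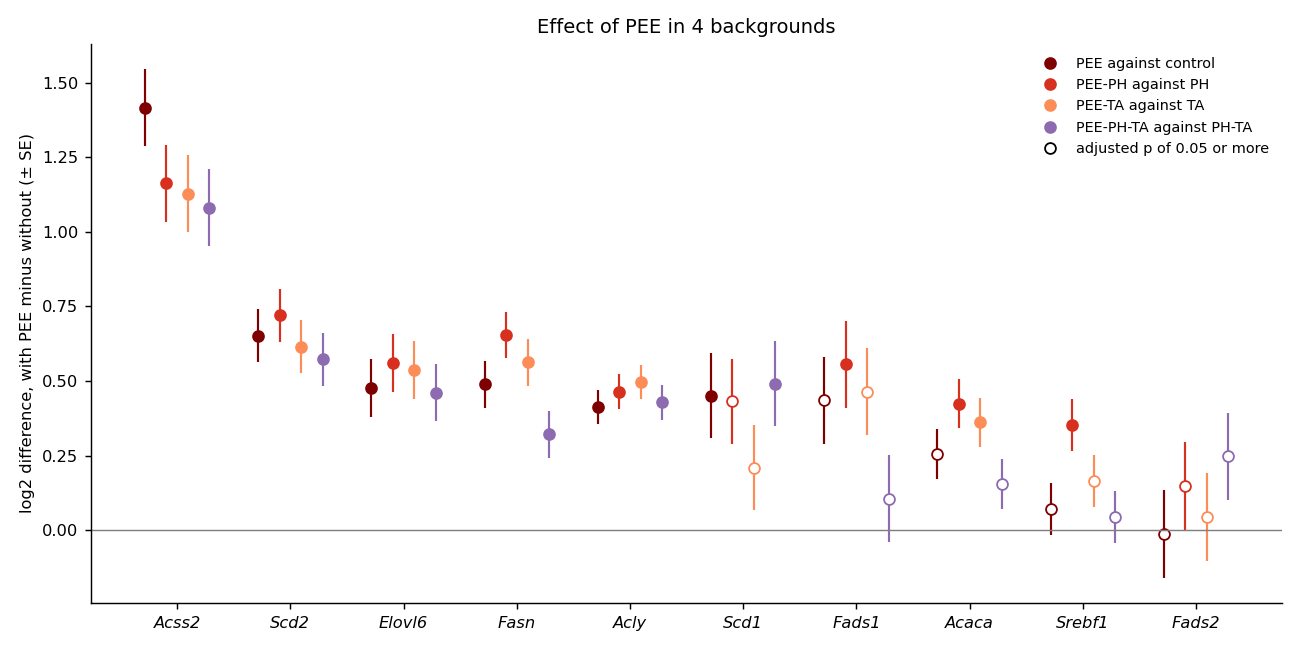
Log2 difference between cultures with and without PEE for the 10 genes in 4 backgrounds, 3 arrays against 3, with bars of 1 SE. Filled points passed the threshold of 0.05 and open points did not. Acss2 lies between 1.08 and 1.42, and Scd2, Elovl6, Fasn and Acly passed in every background.

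The stearoyl-CoA desaturases Scd1 and Scd2 both rose with PEE. Scd2 stood at 5.69, 5.75 and 5.83 with PEE, against 5.18, 5.19 and 4.94 in control. Its differences were 0.65 ± 0.09 (PEE against control, limma, adjusted p = 1.19e-04), 0.72, 0.62 and 0.57 in the 4 backgrounds. The 12 arrays with PEE ran from 5.69 to 6.01 and the 12 without from 4.94 to 5.45. Scd1 stood at 2.60, 2.84 and 2.72 with PEE, against 2.31, 2.42 and 2.09 in control. Its arrays spread more, and those with PEE (2.21 to 2.85) overlapped those without (1.74 to 2.54).

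The average effect of PEE on Scd1 was 0.40 ± 0.07 (limma, adjusted p = 3.47e-04) and within slides 0.33 to 0.47. Against control Scd1 rose with PEE by 0.45 ± 0.14 at an adjusted p of 0.0484. More single arrays ended this call than any other of the 59 calls made for the 10 genes. It ended without any 1 of 16 of the 24 arrays, at adjusted p of 0.052 to 0.165. These were all 3 control, all 3 PEE and all 3 PEE-PH-TA arrays, PH replicate 2, TA replicates 1 and 2, PH-TA replicates 1 and 3, PEE-TA replicate 1 and PEE-PH replicate 1. Scd1 also rose when PEE was added to PH-TA (0.49, 0.0286), a call that ended without PH-TA replicate 1 or 3 or PEE-PH-TA replicate 2 or 3 (0.0698 to 0.11). With the mean of both Scd1 probes the 2 calls ended as well (0.144 and 0.18). The other Scd1 probe, annotated to the opposite strand, gave 0.27 (0.195).

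Fads1, the delta-5 desaturase, stood at 0.21, 0.47 and 0.27 with PEE, against 0.05, -0.13 and -0.28 in control. Its difference of 0.44 ± 0.15 did not pass (limma, adjusted p = 0.0647). With the mean of its 3 probes it did (0.55, 0.00398), as with 5 other alternatives of 35, among them normexp background (0.0357) and the authors' table (0.0443). It rose with PEE-PH (0.55, 0.00718) and PEE-TA (0.65, 0.00368) against control, and its value with PEE-PH-TA was 0.39 (0.0779). The average effect of PEE was 0.39 ± 0.07 (5.19e-04). With the probe mean the call with PEE-PH ended (0.22, 0.137). Added to PH, PEE raised it by 0.56 (0.0181), which ended without PH replicate 3, PEE-PH replicate 1 or PEE-PH replicate 2 (0.0546 to 0.1).

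Fads2, the delta-6 desaturase, gave different answers on its probes. The probe that stands for it had -0.13, -0.04 and 0.36 with PEE, against -0.08, 0.43 and -0.11 in control. The PEE and control arrays overlapped, and it passed in 0 of the 4 backgrounds. Its annotated interval in mm9, chr19:10138750-10139180 on the minus strand, spans 431 bases, where the other Fads2 probes span 60. The other 3 tested Fads2 probes all rose with PEE on average, by 0.65 (limma over 33340 single probes, adjusted p = 8.61e-07), 0.52 (9.44e-05) and 0.33 (0.0189), where 11.6% of single probes rose.

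The brightest of these 3, A_65_P20641, lay between -1.79 and -1.20 on the 12 arrays with PEE and between -2.69 and -1.73 on the 12 without, so the 2 sets overlapped by a small margin. Its means were -1.65 ± 0.12 (SD) in PEE cultures, -1.34 ± 0.12 in PEE-PH, -1.36 ± 0.21 in PEE-TA and -1.51 ± 0.20 in PEE-PH-TA, against -2.53 ± 0.24 in control. These 4 differences of 0.88, 1.19, 1.17 and 1.02 passed (adjusted p of 3.44e-04, 4.84e-06, 1.49e-05 and 5.79e-05). Single probes that rose were 4.28%, 13%, 8.58% and 6.38% of all in these comparisons. It also rose with TA alone (0.61, limma, adjusted p = 0.0266, where 0.411% of probes rose) and with PH-TA (0.71, 0.00114, 10.1%). Its average rise with TA was 0.27 (0.0203, 2.34%).

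The 3 Fads1 probes also parted in 1 respect. All 3 rose with PEE on average, by 0.39, 0.40 and 0.33. The probe A_55_P2732843, annotated to another transcript (ENSMUST00000237221.1), fell by 0.65 with PH on average (limma over single probes, adjusted p = 1.72e-04, where 18% of probes fell), while the other 2 had -0.02 and 0.09. This probe was dim, at a mean log2 signal of 3.6, against 7.7 and 3.4 for the other 2. Its fall with PH passed under 34 of 34 alternatives, at -0.88 to -0.25. It stood at -2.88 ± 0.08 with PEE, the highest group, and at -4.43 ± 0.34 with PH and -4.41 ± 0.15 with PH-TA, the lowest, against -3.64 ± 0.16 in control (SD). Against control it rose with PEE by 0.77 (0.0194) and fell by 0.78 with PH (0.025, where 4.36% of probes fell) and by 0.77 with PH-TA (0.00794, 17.5%). Its interaction of PH with TA was positive (0.74, 0.0165), as for 10.6% of probes. The interaction of the Acaca probe A_55_P2931361, well above background on 15 arrays, was negative (-1.04, 0.0335), as for 3.16% of probes, and turned to 0.04 with normexp background.

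**Figure D3:**
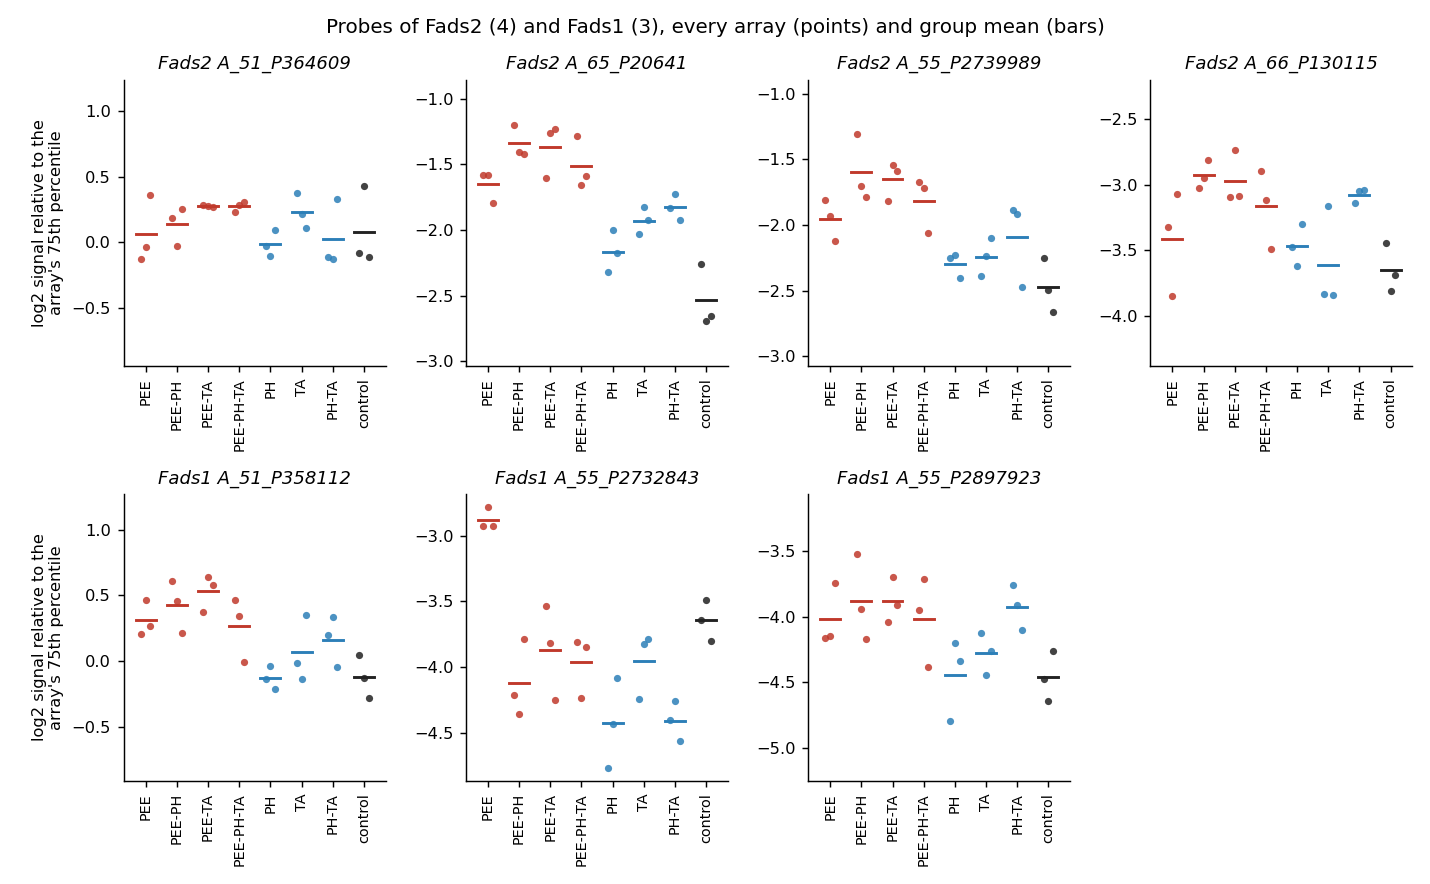
Log2 signal relative to the array's 75th percentile for the 4 tested probes of Fads2 (top row) and the 3 of Fads1 (bottom row), by group, with control on the right. Points are single arrays and bars group means. The first panel in each row is the probe that stands for the gene. For Fads2 it overlaps across groups while A_65_P20641 is higher with PEE.

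Srebf1, the transcription factor, did not pass with PEE alone and rose with the 3 combinations that held PEE. It stood at 3.44, 3.48 and 3.57 with PEE, against 3.54, 3.43 and 3.30 in control, and the difference of 0.07 ± 0.09 did not pass (limma, adjusted p = 0.659, with a 95% confidence interval from -0.11 to 0.26). With PEE-PH it stood at 3.92, 3.85 and 3.73, and with PEE-TA at 3.74, 3.87 and 3.72. These rises of 0.41 (0.00142) and 0.35 (0.00695) passed, and so did 0.27 with PEE-PH-TA (0.042). The last ended without control replicate 2 or 3, PEE-PH replicate 2 or PEE-PH-TA replicate 1 or 2 (0.0511 to 0.189). The average effect of PEE on Srebf1 was 0.16 ± 0.04 (0.0104), and it ended when all arrays of replicate number 1, 2 or 3 were left out (0.0687 to 0.0881). Added to PH, PEE raised it by 0.35 (0.0125), and without PEE-PH replicate 1 by 0.31 (0.0686). Added to TA and to PH-TA, PEE gave 0.16 and 0.04, which did not pass (limma, adjusted p of 0.312 and 0.776). The PH-TA cultures, without PEE, had a mean of 3.65, against 3.69 with PEE-PH-TA. Their difference from control was 0.22 (limma, adjusted p = 0.0599). It passed under 9 of 35 alternatives, among them quantile normalization (0.29, 0.0252), normexp background (0.29, 0.0108) and the authors' table (0.32, 0.0204).

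Counted by treatment against the same 3 control arrays, 6 of the 10 genes rose in PEE cultures (5.2% of all genes rose and 5.69% fell) and 8 in PEE-PH cultures (14.9% and 20.9%) by limma. In PEE-TA cultures 8 rose (10.2% of all genes rose and 15.3% fell), and in PEE-PH-TA cultures 6 (7.78% and 8.72%). None of the 10 fell in these comparisons. Their medians were 0.44, 0.45, 0.53 and 0.35, against 0.02, -0.06, -0.05 and 0.00 over all genes. Adding PEE raised 8 genes over PH (5.14% of all genes rose and 7.47% fell), 6 over TA (3.04% and 3.62%) and 6 over PH-TA (8.61% and 4.91%). Acss2, Acly, Fasn, Elovl6 and Scd2 rose in all 4 backgrounds, Acaca and Scd1 in 2, Fads1 and Srebf1 in 1, and Fads2 in 0. Acaca rose when PEE was added to PH (0.42, adjusted p = 0.0026) and to TA (0.36, 0.0113), and the second call ended without TA replicate 3 (0.29, 0.066). The comparisons with control share their control arrays. With the array percentile as a covariate 4 of the 8 calls with PEE-PH ended, those of Acaca, Elovl6, Fads1 and Srebf1 (adjusted p of 0.154 to 0.346).

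None of the 10 genes passed with PH alone (1.6% of all genes rose and 3.65% fell), TA alone (0.399% and 1.43%) or PH-TA (12.1% and 17.5%). By limma without adjustment 2, 1 and 2 genes had p under 0.05 in these comparisons. With PH alone Scd1 was at -0.32 ± 0.14 (limma, adjusted p = 0.199) and Fasn at -0.17 ± 0.08 (0.22), and Elovl6 at -0.20 ± 0.10 (0.245). Averaged over the 4 backgrounds of PH, Elovl6 fell by 0.18 ± 0.05 (0.01) and Scd1 fell by 0.24 ± 0.07 (0.0145), and 0 rose, where 17.4% of all genes fell and 13.9% rose. The 2 of 10 that fell were about the share of all genes that did. The 2 genes were lower with PH on each of the 3 slides, by -0.25 to -0.14 for Elovl6 and by -0.28 to -0.18 for Scd1. With the array percentile as a covariate neither passed (adjusted p of 0.0573 and 0.162), and without a whole replicate number the call ended in 1 of 3 cases for Elovl6 (0.198) and in 2 for Scd1 (0.0825 and 0.108).

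None of the 10 genes passed for TA on average by limma, where 2.78% of all genes rose and 5.2% fell. The averages ran from 0.01 for Elovl6 to 0.14 for Fads2, above 0 for all 10, as for 45.4% of all genes. With the array percentile as a covariate 6 of them lay below 0 (Acly, Acss2, Acaca, Fasn, Elovl6 and Scd1, the lowest at -0.09). Those of Srebf1 (0.12 ± 0.04, adjusted p = 0.0888) and Scd2 (0.11 ± 0.04, 0.14) had p under 0.05 before adjustment. Their 95% confidence intervals were 0.03 to 0.21 and 0.01 to 0.20.

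**Figure D4:**
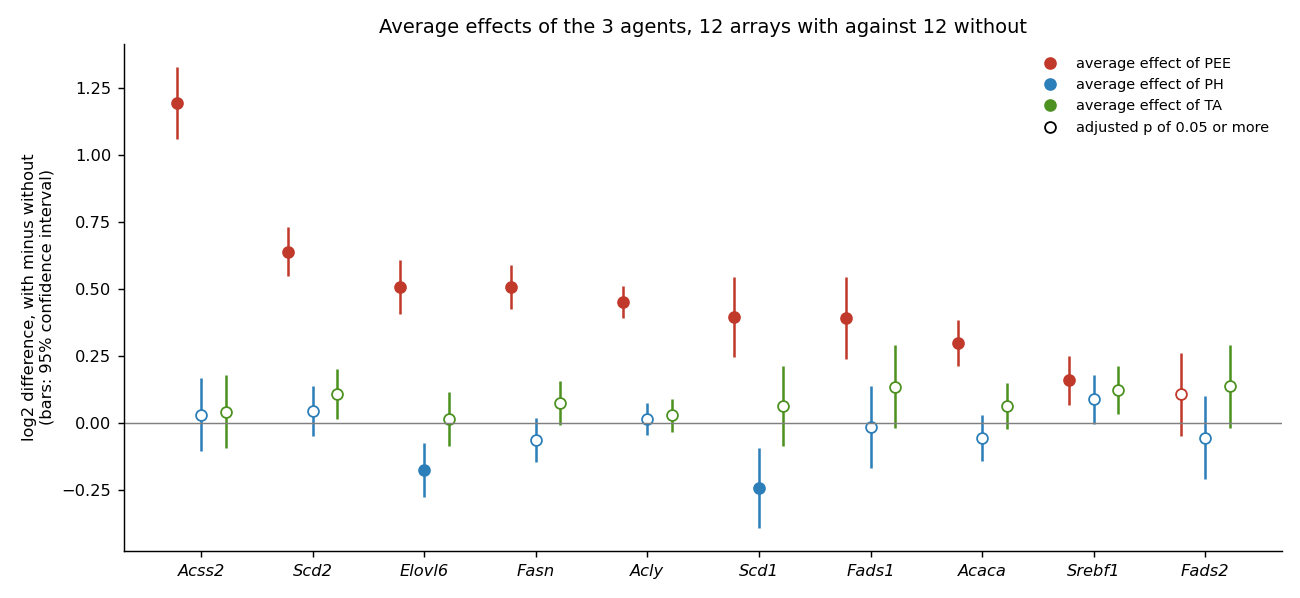
Average effect of PEE (red), PH (blue) and TA (green) on the 10 genes over 4 backgrounds each, as log2 differences of 12 arrays with against 12 without the agent, with 95% confidence intervals. Filled points passed the threshold of 0.05. PEE passed for 9 genes, PH for Elovl6 and Scd1 in the lower direction (about the share of all genes that fell), and TA for 0.

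The effect of PEE did not differ detectably with PH or TA present. The interactions of PEE with PH and of PEE with TA passed for 0 of the 10 genes and for 0% of all genes by limma, and 0 of the 10 had p under 0.05 before adjustment. For Acss2 they were -0.15 (95% confidence interval -0.42 to 0.12) and -0.19 (-0.46 to 0.09), and for Acly -0.01 (-0.13 to 0.11) and 0.02 (-0.10 to 0.15). The interaction of PH with TA passed for 0 of the 10, while it was positive for 9.88% and negative for 3.82% of all genes. Only Srebf1 had p under 0.05 before adjustment there, at -0.22 ± 0.09 (limma, adjusted p = 0.102).

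The 4 groups with PEE held the 4 highest means for 8 of the 10 genes, all but Fads2 and Srebf1. How often this order, or the gaps between neighbours given next, occur over all genes was not counted. For Acss2 the order was PEE, PEE-PH-TA, PEE-PH, PEE-TA, PH-TA, TA, PH and control, and only PEE-TA and PH-TA did not overlap as neighbours. For Acly, Scd2, Elovl6 and Fasn, too, the step from the lowest group with PEE to the next was free of overlap, and Fasn in control also lay above PH. Within the groups with PEE all neighbours overlapped, except that Acaca was higher with PEE-TA than with PEE-PH. Neighbours overlapped at all 7 steps for Fads1, Fads2, Scd1 and Srebf1. Acss2 was the only 1 of the 10 genes whose group means spanned more than 1 log2 unit (1.42). The named genes nearest to its pattern over the 8 group means were the proton channel Hvcn1, catalase (Cat) and the glutathione transferase Gstp1, with root mean square differences of 0.10, 0.11 and 0.11.

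Of 30 further enzymes of fatty acid synthesis, elongation, desaturation and activation that were tested, 13 rose with PEE on average by limma, where 12.8% of all genes rose. The 4 that fell were about the share of all genes that did (14.2%). The median of the 30 was 0.15, against 0.01 over all genes. Among them cytochrome b5 (Cyb5a), the electron donor of the desaturases, rose by 0.75 (adjusted p = 7.21e-12), the acyl-CoA synthetase Acsl3 by 0.54 and the citrate carrier Slc25a1 by 0.45. The dehydratase Hacd4 fell by 0.42 (2.9e-04), and Acss1, the mitochondrial counterpart of Acss2, and Scd4, a further stearoyl-CoA desaturase, both fell by 0.19. The calls of Acss1 (0.0484) and Scd4 (0.0383) ended under 24 and 19 of 35 alternatives.

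Of 17 regulators, 3 rose and 1 fell, close to the shares of all genes (12.8% and 14.2%), with a median of 0.05. Insig1, which holds SREBP precursors in the endoplasmic reticulum, rose by 0.72 (limma, adjusted p = 2.99e-07). The liver X receptor gene Nr1h2 rose by 0.13 and its partner Rxra by 0.09 (0.0387), and Insig2 fell by 0.13 (0.0493). The calls of Rxra and Insig2 ended under 20 and 25 of 35 alternatives. Of 11 genes of glycerolipid synthesis and storage, 5 rose and 1 fell, with a median of 0.09. The phosphatidate phosphatases Lpin1 and Lpin2 rose by 0.82 (6.66e-08) and 0.29, and Lpcat3, which puts polyunsaturated chains into phospholipids, by 0.22. Pnpla3, a lipid droplet protein, fell by 0.70 (5.66e-07).

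Of 8 known targets of the liver X receptors 1 rose, Lpcat3, about the share of all genes that did (12.8%). The cholesterol exporter Abca1 was at 0.16 without passing. Of 22 genes of cholesterol synthesis and uptake, whose main known activator is SREBP-2, 22 rose with PEE on average, where 12.8% of all genes did. Their median was 0.73, with Tm7sf2 (1.18) and Mvd (1.17), both enzymes of cholesterol synthesis, among those that moved most, and the median of the 10 fatty acid genes was 0.42. With PH on average 16 of the 22 fell, where 17.4% of all genes fell, with a median of -0.16 against -0.02 over all genes. Of the 30 further enzymes 3 rose and 8 fell with PH, where 13.9% and 17.4% of all genes did. These counts with PH are without the array percentile as a covariate. With it only 95 of all 22065 genes rose and 163 fell with PH on average.

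**Figure D5:**
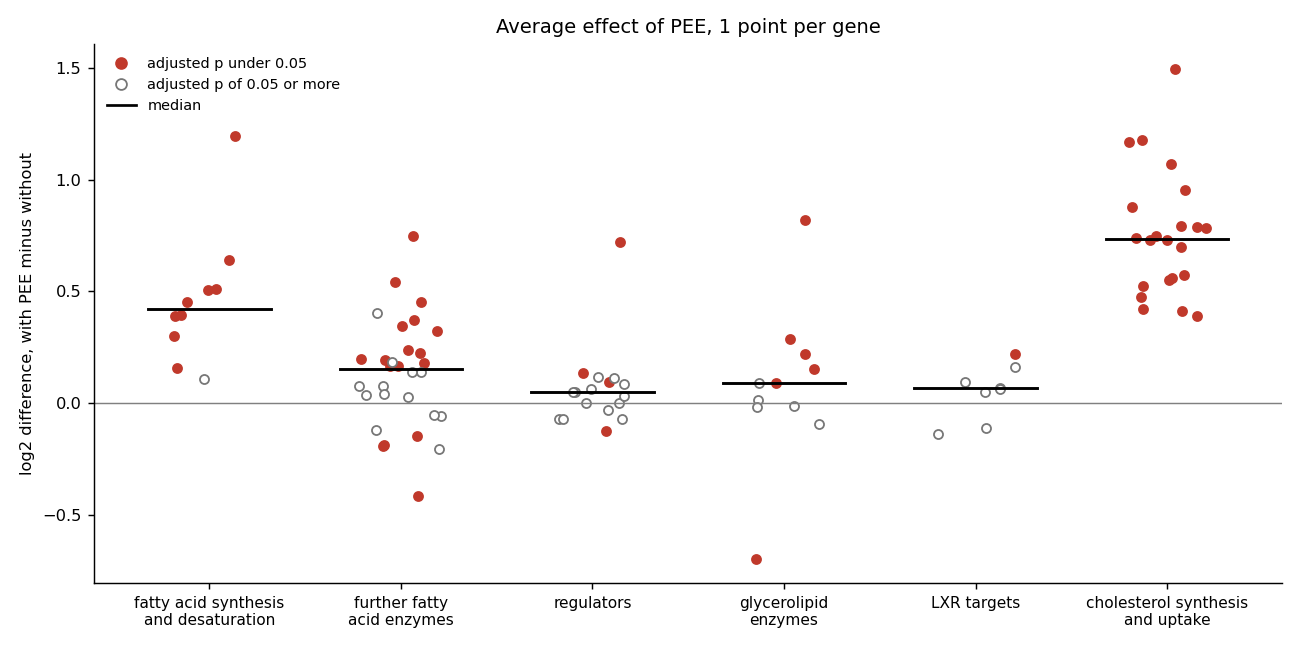
Average effect of PEE as a log2 difference, with 1 point per tested gene, for the 10 genes described here and 5 further lists. Filled red points passed the threshold of 0.05, open points did not, and the black bars are medians. The median is 0.42 for the 10 genes, 0.15 for the further enzymes and 0.73 for the cholesterol genes.

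Cells other than the hair matrix could hold these transcripts, and the sebaceous gland makes much fatty acid. All 10 sebaceous gland markers were well above background on all 24 arrays, and so were 7 of 10 adipocyte, 6 of 7 macrophage, 10 of 10 follicle epithelium and 5 of 6 dermal papilla markers. The summed signal of the sebaceous markers, in multiples of the array's 75th percentile, was 40.9 to 47.3 with PEE, against 34.7 to 36.1 in control. It was 33.2 to 38.3 with PEE-PH, 31.6 to 41.0 with PEE-TA and 41.0 to 41.7 with PEE-PH-TA. Mgst1, a microsomal glutathione transferase, made 14.4 to 16.7 of the sum with PEE, against 8.65 to 10.3 in control. Without it the sum of the other 9 was 26.5 to 30.7 with PEE, against 24.3 to 27.3 in control, and those ranges overlapped. Cidea had the highest mean log2 level of the other 9, at 4.1, and Elovl3 the next, at 0.99, so this sum mostly follows Cidea. On average over backgrounds 2 of the 10 sebaceous markers rose with PEE (Mgst1 by 0.68 and Dgat2l6 by 0.36) and 2 fell (Awat2 by 0.32 and Mc5r by 0.46). Of all genes 12.8% rose and 14.2% fell. The call of Dgat2l6 ended with the array percentile as a covariate (0.074) and without replicate number 2 (0.119). These markers, and the sum without Mgst1, were chosen after their values were seen.

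Of 9 adipocyte markers tested 3 rose with PEE on average (Plin4 by 0.33, Lipe by 0.27 and Lpl by 0.26) and 0 fell by limma, where 12.8% of all genes rose and 14.2% fell. These calls ended without replicate number 1 or 2 for Plin4 (limma, adjusted p of 0.0578 and 0.161) and Lipe (0.082 and 0.292), and without number 2 for Lpl (0.0888). The summed signal of all 10 adipocyte markers was 26.9 to 31.8 with PEE, 21.4 to 31.4 with PEE-PH, 27.5 to 33.8 with PEE-TA and 29.3 to 31.1 with PEE-PH-TA, against 30.9 to 37.5 in control. Fabp4 had the highest mean log2 level of these markers, at 4.5, and Lpl the next, at 2.1, so this sum mostly follows Fabp4. The macrophage sum was 52.0 to 60.3 with PEE alone, just clear of the 39.4 to 51.9 in control. It overlapped control in the combinations, at 38.1 to 44.3 with PEE-PH, 37.8 to 42.1 with PEE-TA and 39.2 to 47.9 with PEE-PH-TA. Lyz2 weighs most in the macrophage sum, at a mean log2 level of 4.5, before Cd68 (3.3) and Csf1r (2.7). Of the 7 macrophage markers 1 rose and 1 fell with PEE alone, and 2 rose and 3 fell on average. With PEE alone 5.2% of all genes rose and 5.69% fell.

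The follicle epithelium sum was below control with PEE alone, at 1001 to 1152, against 1211 to 1392 in control. It was 1258 to 1349 with PEE-PH, 1339 to 1395 with PEE-TA and 1289 to 1329 with PEE-PH-TA, all overlapping control. Krt71, Krt14 and Krt5 had the highest mean log2 levels, at 8.8, 8.7 and 8.1, so this sum mostly follows these keratins. Of its 10 markers 0 rose and 3 fell with PEE alone, and 0 rose and 5 fell on average. Of all genes 5.2% rose and 5.69% fell with PEE alone, and 12.8% rose and 14.2% fell on average. The dermal papilla sum was 13.4 to 14.8 with PEE, 13.1 to 17.3 with PEE-PH, 16.4 to 19.1 with PEE-TA and 14.9 to 16.3 with PEE-PH-TA, against 17.8 to 20.8 in control. Crabp1 had the highest mean log2 level of these markers, at 4.0, and Alx4 the next, at -1.5. This sum is therefore nearly a reading of Crabp1 alone. Of 5 dermal papilla markers tested 1 rose and 1 fell with PEE alone, and 0 rose and 1 fell on average. The part of these cells in the results above was not tested.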

How the data were processed

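The 10 genes, the further lists and the tests were chosen with earlier results of these data known, so that the lists are no independent support. Per the file headers, the deposited signal intensity of each spot was read and background-corrected by Agilent Feature Extraction (12.0.3.1 per the submitters' processing notes), with probe positions on mm9. The labels name a biotin label while the scans hold 1 green channel. Spots marked as outliers were set to missing. A probe was kept if, in 1 group or more, each array read it well above background, which left 33340 of 56605. Values were log2 processed signals less the log2 of the array's 75th percentile over 59305 spots. The brightest tested probe stood for a gene, which left 22065 genes or transcripts.

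limma (3.58.1, R 4.3.3) was fitted to all 24 arrays with 1 mean per group, 16 residual and 2.19 prior degrees of freedom. The 16 comparisons were contrasts of these means, and an average effect is the mean over 4 backgrounds. Probes were also tested singly. Replicate numbers mark the slide and were not taken as pairs. Alternatives used quantile normalization, a normexp correction (offset 50), the log2 values that the authors deposited (whose normalization the labels do not give), all probes unfiltered, probe means, a replicate block, a trended and robust prior, the array percentile as a covariate, and leaving out each array or replicate number. All 10 genes are named, and from each further pathway list the 3 genes that rose most and the 3 that fell most with PEE on average, where as many passed (1 gene that this rule gives is not reported here); marker genes were named after their values were seen. The limma step was tested on simulated data. Figures were drawn with matplotlib 3.10.9. Sequences are from RefSeq. The number of arrays limits precision.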

Additional observations from a re-analysis of the deposited data

Results flagged for a closer look

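Single probes of 2 genes passed the test of an interaction between PH and TA, although the probe that stands for the gene did not. The Fads1 probe A_55_P2732843 had an interaction of 0.74 (limma over 33340 single probes, adjusted p = 0.0165, where 10.6% of probes had a positive and 3.16% a negative interaction). In cultures with PEE its mean level was -2.88 for PEE itself, -4.12 once PH was added, -3.87 once TA was added and -3.96 once both were. In those without PEE it was -4.43 for PH, -3.95 for TA and -4.41 for PH-TA, against -3.64 in control. With quantile normalization the interaction was 0.52 (adjusted p = 0.0937), from the authors' deposited values 0.47 (adjusted p = 0.107), and without replicate number 1 or 2 it was 0.61 and 0.69 (0.137 and 0.229). The Acaca probe A_55_P2931361 had an interaction of -1.04 (0.0335). It was well above background on 15 of 24 arrays, and its lowest array, with PH-TA, stood at -6.91, against -5.73 to -5.08 in control. With normexp background its interaction was 0.04 (0.647), and the call ended without any 1 of 8 single arrays at adjusted p of 0.0501 to 0.0631 (control replicate 1, PH replicate 3, PEE replicates 1 and 2, TA replicate 2, PEE-TA replicate 2, PEE-PH replicate 3 and PEE-PH-TA replicate 2).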

How the results depend on the processing

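Of 59 calls made for the 10 genes, 59 were kept with normexp background, with a replicate block and with a trended and robust prior, 57 with quantile normalization and with the authors' table, 56 without the filter on dim probes, 52 with the mean of all probes and 47 with the array percentile as a covariate. None of the 59 turned its direction under these 8. Leaving out 1 array ended 8 of the 59 calls at least once and leaving out 1 replicate number ended 22, where fewer arrays were tested. Of the 9 average effects of PEE, 8 were kept under all 35 alternatives and that of Srebf1 ended without each replicate number (adjusted p of 0.0687 to 0.0881).

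Genes that rose with PH-TA numbered 2 with quantile normalization, normexp and the authors' table, and 1 with the mean of probes, the trended prior or the replicate block, against 0. Average effects of PH had 1 riser with normexp or the mean of probes and 0 fallers with the covariate, against 0 and 2, and those of TA had 2 risers with normexp and 1 with the mean of probes, against 0. With the covariate 4 genes rose with PEE-PH, against 8, and with normexp 1 interaction of PH with TA was negative, against 0. The cause was not tested.

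Without 1 array or replicate number, genes that rose numbered 4 to 8 with PEE, 5 to 8 with PEE-PH, 6 to 9 with PEE-TA, 0 to 1 with PH-TA, 3 to 6 with PEE-PH-TA, 4 to 9 for PEE added to PH, 4 to 7 to TA, 3 to 6 to PH-TA, 8 to 9 for the average of PEE and 0 to 1 for that of PH, which had 0 to 2 fallers. With the mean of all probes Fads2 turned to 0.41 with PEE, 0.40 with PH-TA and 0.12 for PH on average, where the mean takes in 3 other probes. With normexp the Fads1 probe A_55_P2897923 turned to -0.11 for PH on average and the Acaca probe A_55_P2931361 to 0.0359 for its interaction of PH with TA. Arrays with the same replicate number, which share a slide, deviated together weakly (median r = 0.10 over 84 pairs, from -0.19 to 0.35, against -0.05 over 168 pairs of other numbers), and 19 of 24 arrays were closest to their own number. The replicate block brought 4 further values past the threshold: Acaca with PEE (0.0248) and PEE-PH-TA (0.0469), Srebf1 with PH-TA (0.0386) and Scd1 for PEE added to PH (0.036). Of the further pathway genes named, Rxra, Scd4, Acss1 and Insig2 kept their calls under 15, 16, 11 and 10 of 35 alternatives.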
